A study of Mus musculus with 6 samples.

Results

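The genes analysed were those of the mouse proteasome and its activators, taken as the protein-coding rows of the count table whose symbols start with *Psma*, *Psmb*, *Psmc* or *Psmd* and a number, together with *Psme1* to *Psme4*. Of 44 such rows, 43 reached the 10 counts in 2 of the 6 libraries that a gene needed to be tested, as did 16296 genes in all. RNA came from coronary endothelial cells (ECs) of E15.5 heart ventricles, sorted by FACS for the membrane GFP (mGFP) that appears once Cre has recombined the R26mTmG reporter. The Control group (Control ΔEC; Pdgfb-CreERT2/+; Wt1+/+; R26mTmG/+) and the Wt1KO group (Wt1KO ΔEC; Pdgfb-CreERT2/+; Wt1 LoxP/LoxP; R26mTmG/+) held 3 libraries each, and the comparison asked what loss of *Wt1* in these cells did to their transcripts. Both groups carried the Cre driver, which is active in ECs, and the reporter, and the pregnant dams of both received tamoxifen (75 mg/kg, E11.5 to E13.5), so that Cre and tamoxifen were common to all 6 libraries. The number of embryos behind a library is not given in the sources used here, so p-values measure the spread between libraries.

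The proteasome is the protease that degrades ubiquitin-tagged proteins in the cytosol and nucleus of every cell. Its core is a barrel of outer rings of alpha subunits (*Psma* genes) and inner rings of beta subunits (*Psmb* genes), of which *Psmb5*, *Psmb6* and *Psmb7* encode the catalytic ones. A regulatory particle binds the barrel's ends and consists of a base, whose ATPases (*Psmc* genes) unfold substrates, and a lid (most *Psmd* genes), which removes the ubiquitin chains. In cells exposed to interferon, *Psmb8*, *Psmb9* and *Psmb10* can replace the catalytic subunits to form the immunoproteasome, and activators encoded by *Psme* genes can cap the barrel in place of the regulatory particle. Of the 43 genes, 7 encode alpha ring subunits, 7 constitutive beta ring subunits, 3 immunosubunits, 6 base ATPases, 3 other base subunits, 8 lid subunits, 3 chaperones of base assembly (*Psmd5*, *Psmd9* and *Psmd10*), 4 activators and 1 a testis-specific alpha subunit (*Psma8*). *Psmc3ip*, which the symbol rule also takes in, encodes a homologous recombination factor and is no proteasome subunit. *Psmb11*, the beta subunit of the thymus, was the row left out, with counts of 0, 3 and 0 in Control and of 0, 0 and 15 in Wt1KO.

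The libraries held 26037324 to 44779020 counts, at which 3 counts make 0.0608 to 0.119 CPM (counts per 1000000 counts of the library after TMM scaling), and a gene without a count could still be present at up to that level. *Wt1*, the targeted gene, had 145, 110 and 149 CPM in Control (replicates 1, 2 and 3, the order kept throughout) and 14.0, 18.4 and 21.3 CPM in Wt1KO. It fell by 2.91 ± 0.22 on the log2 scale (SE, n = 3 against 3; edgeR's quasi-likelihood test, adjusted p = 0.00319), so that transcripts remained in the Wt1KO libraries. EC markers summed to 4773 to 5826 CPM in Control and 4613 to 5376 CPM in Wt1KO. The libraries of the genotypes also differed in other respects: *Rn18s* took 13.2% to 15.3% of the counts in Control and 21.1% to 26.5% in Wt1KO, 8 fibroblast markers summed to 679 to 982 CPM against 1347 to 1554 CPM, and 6 mural markers to 150 to 201 CPM against 116 to 142 CPM. Mitochondrially encoded genes took 5.21% to 6.61% of the counts in Control and 1.68% to 4.57% in Wt1KO. These shares and marker sums did not overlap between the genotypes. Sums of 10 macrophage markers did, at 316 to 966 CPM against 260 to 356 CPM. Those of 6 epicardial markers also overlapped, at up to 17.9 CPM in Control and 17.3 to 49.3 CPM in Wt1KO. By log2 fold change (Wt1KO over Control), 7 of 8 fibroblast markers were positive, with *Lum* at 0.04 and *Postn* at -0.16. Of 5 mural markers tested 4 were negative, with *Acta2* at -0.04 and *Tagln* at 0.92. Although their sums overlapped, all 10 macrophage markers were negative, with a median of -0.78. Of the 6 epicardial markers 5 were positive, with a median of 1.17 and *Aldh1a2* at -0.05. Of the summed genes, the study counts *Col1a1*, *Col3a1*, *Dcn* and the EC marker *Tek* as venous and *Kcnj8* as arterial. It also lists *Col1a1*, and *Acta2* of the mural markers, among fibroblast genes with relatively low counts in the sorted cells. The sums therefore do not measure other cell types alone. The part of these shares and sums in the results that follow was not tested. In bulk samples, fewer cells of a type and less RNA per cell cannot be told apart.

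None of the 43 genes was called between the genotypes at an adjusted p under 0.05 and a log2 fold change beyond 0.58 in either direction by edgeR's quasi-likelihood test, against 0.0736% of all genes tested (12 of 16296). The log2 fold changes, given as Wt1KO over Control, were positive for 38 of the 43 genes, against 48% of all genes tested, and their median was 0.21 against -0.03 over all genes. At an unadjusted p under 0.05 there were 5 genes higher in Wt1KO, *Psmb5*, *Psmd8*, *Psmb2*, *Psmb3* and *Psmd3*, against 5.96% of all genes, and 1 gene lower, *Psme3*, against 7.12% of all genes. In 15 of the 43 genes every Wt1KO library was above every Control library, against 10.3% of all genes tested, and in 0 every Wt1KO library was below, against 8.97%. Without *Psma8*, most of whose counts lay in the Wt1KO libraries, and *Psmc3ip*, which is no subunit, the positive genes numbered 36 of 41 and those without overlap 13 of 41. DESeq2 on the same genes called 1 of the 43, *Psmb5*, while it called 3.68% of all genes.

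**Figure D1:**
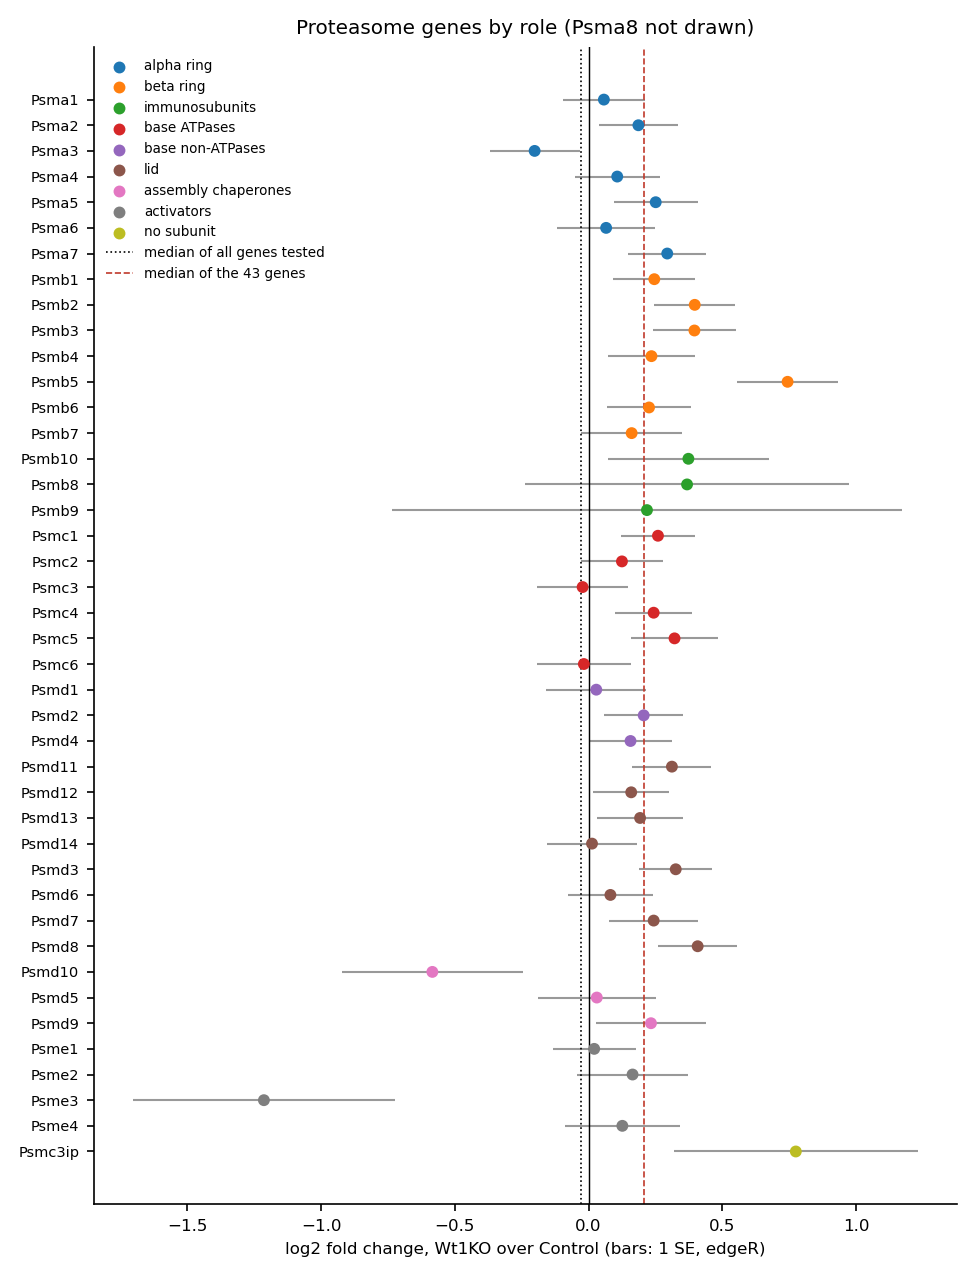
Log2 fold change of 42 proteasome genes, Wt1KO over Control, from edgeR with bars of 1 SE, coloured by role; *Psma8*, whose SE is 1.91, is not drawn. Most points lie between 0 and 0.45, around the median of 0.21 (dashed), while the median of all genes tested is -0.03 (dotted), and *Psme3* and *Psmd10* lie furthest to the left.

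The proteasome transcripts are short, with a median exonic length of 1702 bp in the canonical transcript against 3465 bp over 13786 protein-coding genes tested, and log2 fold changes in these libraries varied with length. Spearman's rho between the log2 fold change and the length was -0.14 across 16238 genes and -0.28 across the 43 proteasome genes, which is a description across genes that share the same 6 libraries. Among 3258 protein-coding genes with a mean of at least 50 CPM, put into 5 length classes of equal size, the median log2 fold change was 0.22 in the shortest class (108 to 2030 bp), 0.09, 0.01 and -0.04 in the next 3 and -0.19 in the longest. In the shortest class 77.5% of the genes had a positive log2 fold change, and 18 of the 32 proteasome genes of that abundance belonged to it. The median over the 18 proteasome genes in the shortest class was 0.23, beside 0.22 for the class, and 10 of them were above the class median. Of the other 14 abundant proteasome genes, 11 were above the median of their own length class. Over all 43 genes the median was 0.13, with 36 of 43 genes positive, when offsets for length and GC content were added to the fit, and 0.06, with 28 of 43 genes positive, when libraries were scaled by their totals only, a scaling that moved the median of all genes to -0.18. With the offsets, the median of all genes was -0.05. Genes that the offsets moved by over 1.5 times included *Psma7*, from 0.29 to 0.09, *Psmb3*, from 0.40 to 0.16, and *Psmb4*, *Psmb6* and *Psmb7*, from 0.24, 0.23 and 0.16 to 0.08, 0.04 and 0.04. Likewise *Psmc4* went from 0.24 to 0.11, *Psmc5* from 0.32 to 0.19, *Psmd2* from 0.21 to 0.13, *Psmd3* from 0.33 to 0.21 and *Psmb10* from 0.37 to 0.22. *Psma2* and *Psme4* moved away from 0, from 0.19 to 0.32 and from 0.13 to 0.26. Values in what follows are without offsets unless stated.

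**Figure D2:**
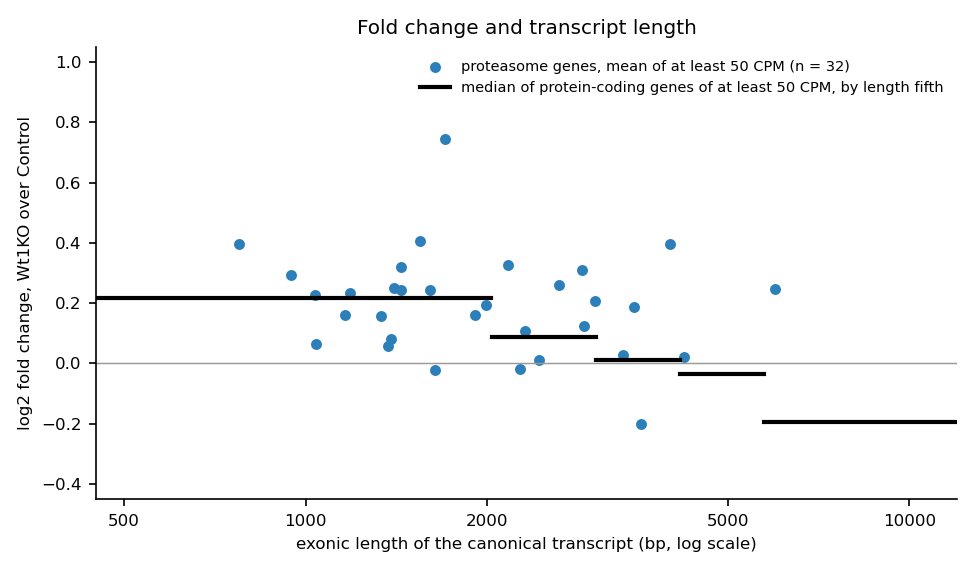
Log2 fold change, Wt1KO over Control, against exonic length (log scale, with the outermost classes cut at the edges) for the 32 proteasome genes with a mean of at least 50 CPM (dots) and the median of all protein-coding genes of that abundance in 5 length classes (bars). The bars step down from 0.22 to -0.19, and 18 of the dots lie over the shortest class.

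Summed by role, 3 groups of subunits were higher in every Wt1KO library than in any Control library. The 7 constitutive beta ring genes summed to 807, 656 and 742 CPM in Control and to 920, 879 and 941 CPM in Wt1KO. The 8 lid genes summed to 991, 908 and 940 CPM in Control and to 1117, 1106 and 1139 CPM in Wt1KO. The 3 immunosubunits, at far lower levels, summed to 10.3, 13.2 and 13.1 CPM in Control and to 16.9, 14.1 and 15.9 CPM in Wt1KO. The alpha ring, the base and the activators overlapped between the genotypes. The 7 alpha ring genes came to 1062 ± 123 CPM in Control and 1128 ± 57.1 CPM in Wt1KO (SD, n = 3 each), the 6 base ATPases to 899 ± 70.5 against 994 ± 35.4 CPM, and the 3 other base subunits to 639 ± 69.5 against 704 ± 43.7 CPM. The 4 activators summed to 189, 213 and 162 CPM in Control and to 178, 155 and 163 CPM in Wt1KO. No test was made of these sums, and they weigh the subcomplexes by their most abundant genes.

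**Figure D3:**
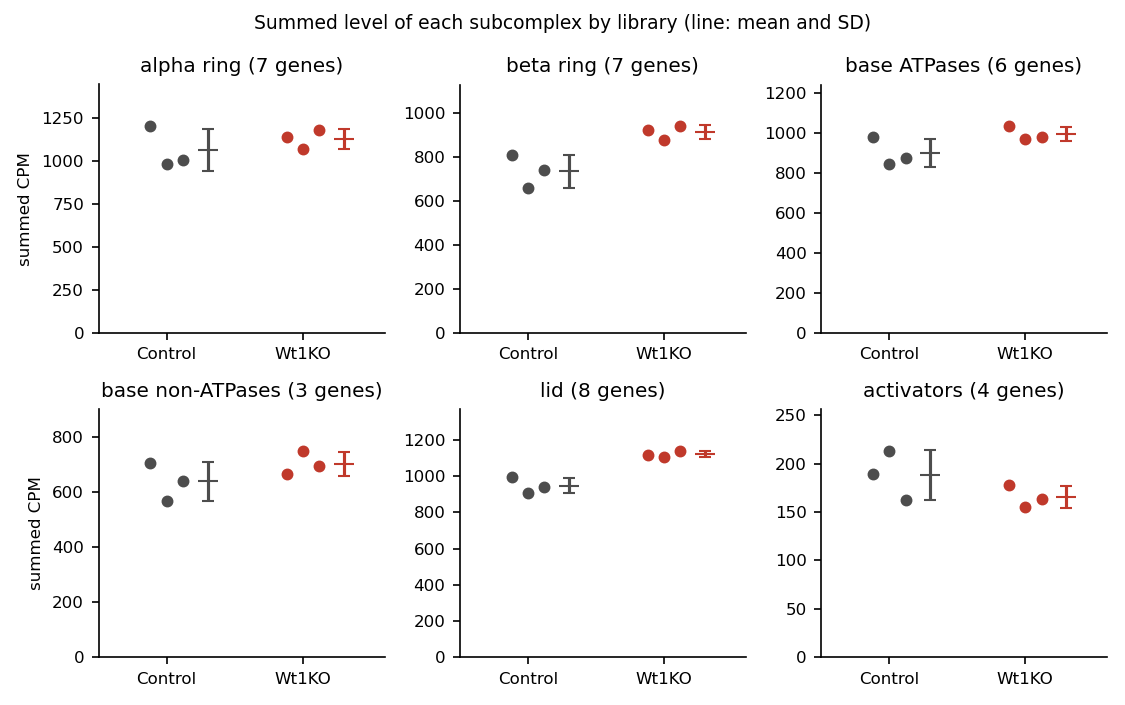
Summed CPM of the genes of 6 subcomplexes in each library (dots, replicates 1 to 3 of Control and Wt1KO from left to right) with the mean and SD of each group. Of these 6, the beta ring and the lid are the panels in which the groups do not overlap, at 656 to 807 against 879 to 941 CPM and at 908 to 991 against 1106 to 1139 CPM.

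The counts by role and by list that follow stand beside shares over all genes tested. Of all genes, 48% had a positive log2 fold change. By edgeR's quasi-likelihood test 5.96% had an unadjusted p under 0.05 and were higher in Wt1KO. In 10.3% every Wt1KO library was above every Control library. In the alpha ring, which gates the entry to the barrel, 6 of 7 genes had a positive log2 fold change, with a median of 0.11, and none had an unadjusted p under 0.05. *Psma7* was at 130, 126 and 128 CPM in Control and 174, 148 and 149 CPM in Wt1KO. Its groups did not overlap, and the log2 fold change was 0.29 ± 0.14 (SE; edgeR's quasi-likelihood test, adjusted p = 0.439). *Psma2* was at 141, 118 and 124 CPM against 146, 151 and 138 CPM, groups that overlapped between Control replicate 1 and Wt1KO replicate 3. The remaining members ranged from -0.20 for *Psma3* to 0.25 for *Psma5* on the log2 scale.

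The beta ring had 7 of 7 positive log2 fold changes, a median of 0.25, and 3 genes with an unadjusted p under 0.05. *Psmb5*, which encodes the subunit with chymotrypsin-like activity that the drug bortezomib binds, was at 63.0, 54.7 and 42.4 CPM in Control and at 80.4, 98.5 and 89.4 CPM in Wt1KO. All Wt1KO libraries were above all Control libraries, and the log2 fold change was 0.74 ± 0.19 (SE; edgeR's quasi-likelihood test, unadjusted p = 0.00325, adjusted p = 0.198), with values of 0.61 to 0.88 when each library was left out in turn. DESeq2 gave it a log2 fold change of 0.74 and an adjusted p of 0.0192.

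*Psmb5* (GRCm39, chr14:54850776-54855481, minus strand) has a processed pseudogene, *Gm3375* (chr7:3230842-3231636), which matched its 792 coding bases with 8 mismatches and without a gap. Of the 742 windows of 51 bases, the read length, in the *Psmb5* coding sequence, 60.0% occur unchanged in *Gm3375*. The longest stretch without a mismatch is 194 bases. This is a share of coding windows and not of reads. Reads came in pairs, and the canonical transcript of *Psmb5* has 1701 bases, whose untranslated parts were not compared. The coding bases 281 to 470 are shown here because they hold 5 of the 8 mismatches, written in capitals.
Psmb5: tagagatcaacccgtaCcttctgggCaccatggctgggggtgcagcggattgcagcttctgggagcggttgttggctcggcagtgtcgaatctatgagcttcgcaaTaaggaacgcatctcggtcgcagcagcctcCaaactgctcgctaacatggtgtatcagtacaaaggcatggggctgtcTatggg
Gm3375: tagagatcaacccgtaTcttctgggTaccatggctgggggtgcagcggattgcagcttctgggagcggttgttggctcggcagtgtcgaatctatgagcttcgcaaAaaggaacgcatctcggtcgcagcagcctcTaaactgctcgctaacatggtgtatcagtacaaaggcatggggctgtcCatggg

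The pseudogene's estimated level went the other way. *Gm3375* was at 43.9, 39.6 and 43.7 CPM in Control and at 17.9, 29.9 and 24.1 CPM in Wt1KO, again without overlap, with a log2 fold change of -0.82 ± 0.23 (SE; edgeR's quasi-likelihood test, adjusted p = 0.22). Of the counts that *Psmb5* and *Gm3375* had together, 41.1% to 50.7% stood under *Gm3375* in Control and 18.2% to 23.3% in Wt1KO. Their sum was 107, 94.3 and 86.1 CPM in Control and 98.3, 128 and 113 CPM in Wt1KO, and these groups overlapped. Fitted as 1 gene, the pair had a log2 fold change of 0.24 with an adjusted p of 0.613 by edgeR's quasi-likelihood test, and of 0.24 with an adjusted p of 0.612 by DESeq2, an alternative chosen after the data had been seen. The value of *Psmb5* alone thus depends on how reads were divided between the 2 genes, which was not tested. Copies of other genes held smaller shares: *Psma5* summed with *Psma5-ps* had a log2 fold change of 0.24 against 0.25 alone, and *Psme2* summed with *Psme2b* 0.14 against 0.16 alone.

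**Figure D4:**
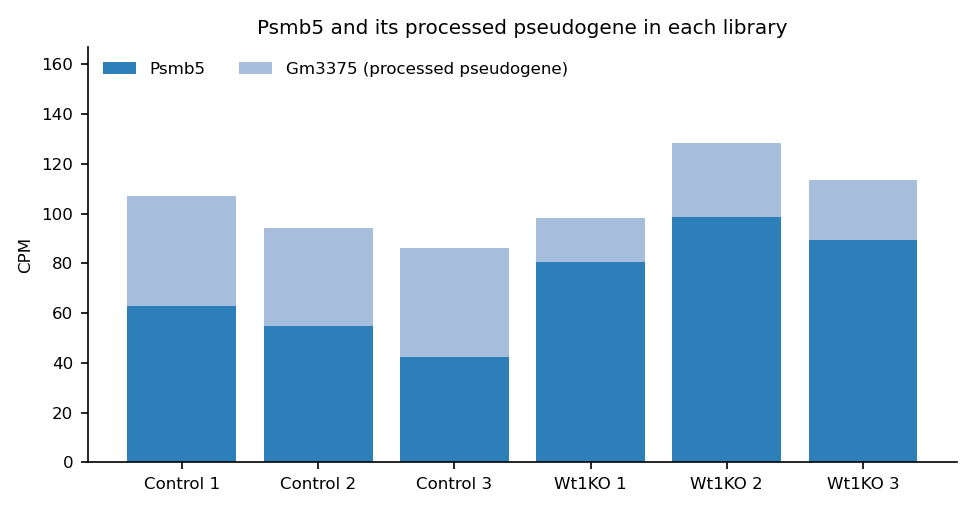
CPM of *Psmb5* (dark) and its processed pseudogene *Gm3375* (light), stacked, in each of the 6 libraries. *Psmb5* is at 42.4 to 63.0 CPM in Control and 80.4 to 98.5 CPM in Wt1KO, whereas the full bars overlap, at 86.1 to 107 against 98.3 to 128 CPM.

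*Psmb2*, a beta subunit without catalytic activity, was at 117, 101 and 115 CPM in Control and 155, 132 and 152 CPM in Wt1KO. *Psmb3*, a further structural subunit, was at 93.9, 75.7 and 76.6 CPM against 111, 102 and 111 CPM. Neither gene overlapped between the genotypes, and both had a log2 fold change of 0.40 with adjusted p-values of 0.316 and 0.33 by edgeR's quasi-likelihood test. With the length and GC offsets *Psmb2* was at 0.39 and *Psmb3*, whose canonical transcript has 774 bases, at 0.16. *Psmb1* was at 149, 123 and 158 CPM against 170, 174 and 167 CPM, also without overlap, while *Psmb4*, at 148, 117 and 140 CPM against 167, 140 and 170 CPM, overlapped. The catalytic subunits *Psmb6* and *Psmb7* had log2 fold changes of 0.23 and 0.16, with groups that overlapped.

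The immunosubunits were at low levels in all 6 libraries. *Psmb8* was at 1.50, 3.41 and 3.61 CPM in Control and 4.17, 3.29 and 3.52 CPM in Wt1KO. *Psmb9* was at 1.56, 0.993 and 1.25 CPM against 1.74, 0.477 and 2.22 CPM, and its exons overlap those of *Tap1* on the opposite strand over 743 bp, so that reads there cannot be told apart in libraries that do not mark strand. Counted over the exons of all transcripts in GENCODE vM39, such overlaps on the opposite strand touch 21 of the 43 genes. Some are short, as those of 17 bp and 37 bp in *Psmd3*. Some partners, as *Gm65701* at *Psmb4*, have no row in the count table. The number 21 is therefore not a count of genes whose reads are affected. *Psmb10* was at 7.26, 8.82 and 8.26 CPM against 11.0, 10.3 and 10.2 CPM. Only *Psmb10* did not overlap between the genotypes, and it had a log2 fold change of 0.37 ± 0.30 (SE; edgeR's quasi-likelihood test, adjusted p = 0.691). Per kb of exonic length, the mean levels of *Psmb8*, *Psmb9* and *Psmb10* were 1.91, 1.02 and 7.10 CPM, against 42.0, 113 and 92.9 CPM for *Psmb5*, *Psmb6* and *Psmb7*. The immunosubunits made up 2.91%, 4.47% and 4.15% of these 6 genes' level per kb in Control and 4.40%, 3.60% and 3.89% in Wt1KO. The groups overlapped, with means of 3.84% ± 0.824 and 3.97% ± 0.403 (SD, n = 3 each).

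Genes that act with the immunosubunits were described as lists. Of 11 genes of class I peptide presentation, which uses the peptides that proteasomes release, 7 had a positive log2 fold change, 0 were called, and 3 had an unadjusted p under 0.05. The ER chaperones *Calr* and *Pdia3* had log2 fold changes of 0.55 and 0.43 and the peptide-trimming protease *Erap1* of -0.54, with adjusted p-values of 0.217, 0.306 and 0.299 by edgeR's quasi-likelihood test. Of 9 interferon signalling genes 6 were positive and 0 were called. *Ifngr2*, a receptor chain for interferon gamma, was at 52.9, 67.7 and 57.2 CPM in Control and 88.5, 74.3 and 71.9 CPM in Wt1KO, without overlap, and had a log2 fold change of 0.40 ± 0.17 (SE; edgeR's quasi-likelihood test, adjusted p = 0.363).

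In the base, *Psmc1* was at 162, 162 and 166 CPM in Control and 207, 184 and 196 CPM in Wt1KO, and *Psmc4* at 174, 160 and 166 CPM against 209, 205 and 178 CPM. Both were without overlap, with log2 fold changes of 0.26 and 0.24 (edgeR's quasi-likelihood test, adjusted p = 0.481 and 0.539). *Psmc5* was at 124, 104 and 102 CPM against 139, 119 and 153 CPM and overlapped, with a log2 fold change of 0.32. The lowest ATPase per kb, *Psmc2*, was at 111, 103 and 132 CPM against 126, 124 and 128 CPM. Of the 6 ATPases, 4 had positive log2 fold changes, and *Psmc3* and *Psmc6* were both at -0.02. Among the other base subunits, *Psmd2*, a scaffold that receives ubiquitin shuttle factors, had the highest mean CPM of the 43 genes and was at 317, 295 and 320 CPM against 329, 404 and 342 CPM, without overlap and with a log2 fold change of 0.21. *Psmd1* overlapped, at 266, 167 and 224 CPM against 210, 229 and 232 CPM.

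All 8 lid genes had positive log2 fold changes, with a median of 0.22, against 48% positive over all genes tested. In 4 of them every Wt1KO library was above every Control library, against 10.3% of all genes tested. *Psmd8* was at 165, 163 and 177 CPM in Control and at 250, 213 and 207 CPM in Wt1KO. Its log2 fold change was 0.41 ± 0.15 (SE; edgeR's quasi-likelihood test, unadjusted p = 0.0219, adjusted p = 0.296). *Psmd3* was at 145, 150 and 144 CPM against 178, 181 and 192 CPM, a separation of groups with little spread inside either, and had a log2 fold change of 0.33 ± 0.14 (unadjusted p = 0.0414, adjusted p = 0.361 by the same edgeR test). *Psmd11* was at 127, 121 and 147 CPM against 163, 170 and 158 CPM, also without overlap, with a log2 fold change of 0.31. Its copy *A730017L22Rik*, a lncRNA gene in which 31.7% of the 51-base windows of the *Psmd11* coding sequence occur unchanged, went from 14.4, 12.2 and 8.36 CPM to 7.11, 4.13 and 5.98 CPM, and the pair summed had 0.24. *Psmd14*, the deubiquitinase of the lid, was at 124, 106 and 87.4 CPM against 106, 105 and 109 CPM and had a log2 fold change of 0.01.

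**Figure D5:**
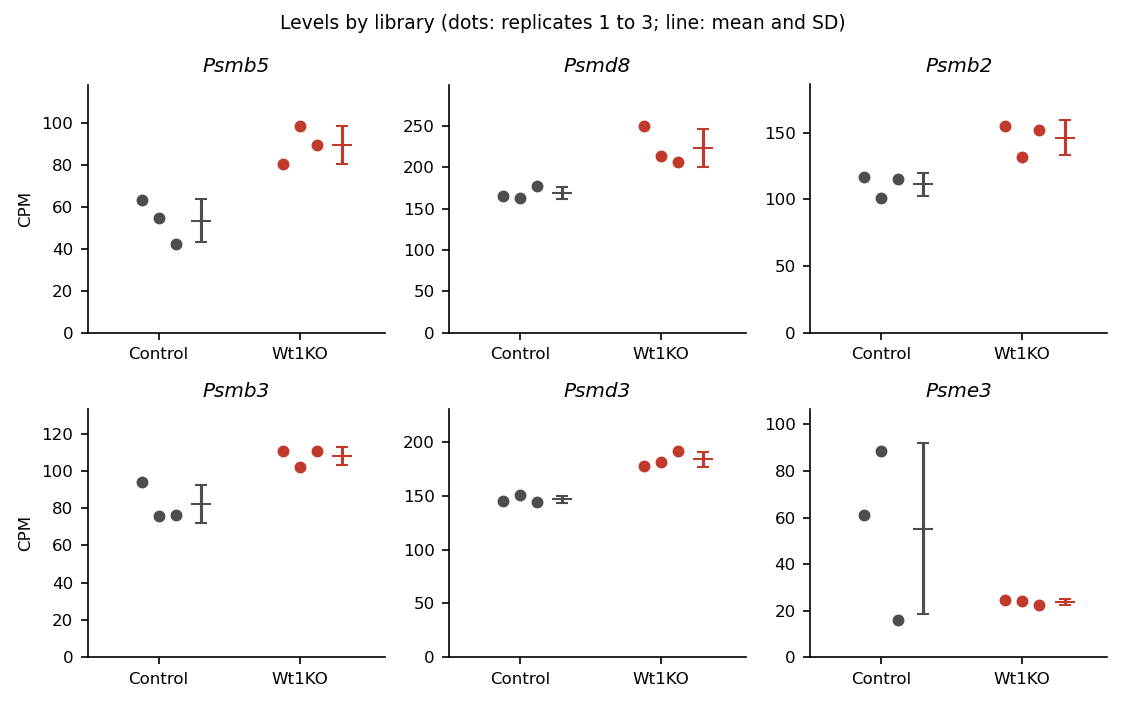
CPM by library of the 6 proteasome genes with an unadjusted p under 0.05 (dots, replicates 1 to 3 from left to right) with the mean and SD of each group. In the first 5 panels all Wt1KO dots lie above all Control dots, and in the *Psme3* panel Control replicate 3, at 15.9 CPM, lies below the Wt1KO dots at 22.3 to 24.8 CPM.

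Of the 4 activators, 3 had positive log2 fold changes, with a median of 0.07 over all 4, and *Psme3* was lower in Wt1KO. *Psme3*, which encodes a nuclear activator that works without ubiquitin, was at 60.9, 88.7 and 15.9 CPM in Control and at 24.8, 24.3 and 22.3 CPM in Wt1KO. The Control libraries spread widely, and replicate 3 was below all Wt1KO libraries. The log2 fold change was -1.21 ± 0.49 (SE; edgeR's quasi-likelihood test, unadjusted p = 0.0348, adjusted p = 0.341), it was -1.65 with an adjusted p of 0.042 without Control replicate 3, the only case in which leaving out a library led to a call, and -0.69 without Control replicate 2. The 10 macrophage markers summed to 482, 966 and 316 CPM in Control and to 356, 335 and 260 CPM in Wt1KO, and *Csf1r*, the macrophage growth factor receptor, was at 153, 327 and 103 CPM against 72.5, 92.1 and 57.1 CPM. *Psme3* was highest and lowest in the same Control replicates as these markers. The order was not particular to them. Sums of 10 erythroid markers had it too, at 8751, 14382 and 6579 CPM in Control, against 7917, 5145 and 8551 CPM in Wt1KO. The erythroid markers did not move together between the genotypes. By log2 fold change 6 were negative and 4 positive, from *Alas2* at -1.15 to *Hbb-y* at 2.57. The part of either set of markers in the value of *Psme3* was not tested. Of its neighbours on chromosome 11, *Becn1* was at 105, 117 and 109 CPM against 110, 115 and 107 CPM. *Aoc2*, which lies between *Psme3* and *Aoc3*, was at 0.447, 1.32 and 2.60 CPM against 2.64, 1.74 and 1.15 CPM. Both overlapped between the genotypes, whereas *Aoc3* fell from 23.9, 11.2 and 14.0 CPM to 0.793, 0.534 and 0.356 CPM (edgeR's quasi-likelihood test, adjusted p = 0.0204).

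*Psme1* and *Psme2* encode the subunits of the activator that interferon gamma induces. *Psme1* was at 66.0, 56.5 and 67.6 CPM in Control and 65.1, 62.2 and 65.6 CPM in Wt1KO, and *Psme2* at 39.7, 40.2 and 49.2 CPM against 56.6, 37.4 and 50.7 CPM. Both overlapped, with log2 fold changes of 0.02 ± 0.15 and 0.16 ± 0.21. *Psme4*, whose product caps the barrel without an ATPase, was at 22.7, 27.8 and 29.1 CPM against 31.2, 31.1 and 24.5 CPM, with a log2 fold change of 0.13 ± 0.21, and it was the lowest activator per kb of exonic and of coding length.

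The chaperones of base assembly were less abundant than the subunits they help to assemble. *Psmd5* was at 47.8, 37.3 and 34.7 CPM in Control and 50.4, 37.1 and 34.9 CPM in Wt1KO. *Psmd9* was at 36.4, 33.5 and 37.0 CPM against 51.9, 36.6 and 37.1 CPM, and the higher value came from 1 library. *Psmd10*, known as gankyrin, had a log2 fold change of -0.58 ± 0.34 (SE; edgeR's quasi-likelihood test, adjusted p = 0.526), at 27.6, 31.9 and 14.0 CPM against 17.9, 19.1 and 12.0 CPM. Among the 8 genes tested of a list of assembly factors and regulators, 7 had positive log2 fold changes and 3 had an unadjusted p under 0.05, with a median of 0.43. *Pomp*, the chaperone that matures the barrel, was at 81.3, 87.1 and 89.5 CPM against 113, 108 and 118 CPM, without overlap, and had a log2 fold change of 0.39 ± 0.14 (edgeR's quasi-likelihood test, adjusted p = 0.293). *Psmg1*, an assembly chaperone of the alpha ring, had 0.46 (adjusted p = 0.362 by the same edgeR test), and *Psmf1*, an inhibitor of the barrel, 0.59 (adjusted p = 0.378 by that test). *Psmg1* did not overlap between the genotypes. *Psmf1* did, at 23.9, 19.5 and 27.1 CPM against 46.9, 32.3 and 27.1 CPM.

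Genes with low counts were *Psma8* and *Psmc3ip*. *Psma8* had 0, 0 and 17 counts in Control and 107, 53 and 21 counts in Wt1KO, and it was tested because all Wt1KO libraries had at least 10 counts while only 1 Control library did. Its fitted log2 fold change of 3.12 ± 1.91 (SE; edgeR's quasi-likelihood test, adjusted p = 0.56) depends on how counts of 0 are treated. It was 9.04 without Control replicate 3, the only Control library with counts, 2.53 to 3.44 without each of the other libraries, and 5.51 by limma-voom. *Psmc3ip*, the recombination factor, was at 3.78, 4.60 and 3.23 CPM against 4.76, 6.26 and 8.86 CPM, without overlap, and had a log2 fold change of 0.77 ± 0.46 (adjusted p = 0.533 by the same edgeR test). Without it the median of the genes was 0.20.

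Other genes around the proteasome were counted by lists. Of 5 subunits and bound enzymes that the symbol rule misses, 5 had positive log2 fold changes, among them *Sem1*, the smallest lid subunit, at 0.35 (edgeR's quasi-likelihood test, adjusted p = 0.369). Of 6 ubiquitin and ubiquitin-activating enzyme genes 5 were positive and 0 were called. Of 11 shuttle factors and segregase adaptors 8 were positive and 0 were called. Of 10 genes of transcriptional control 4 were positive. *Nfe2l1*, which encodes the transcription factor that raises proteasome genes when the protease is inhibited, was at 125, 157 and 123 CPM against 155, 160 and 137 CPM and had a log2 fold change of 0.16, while *Mafg*, which encodes a partner of this factor, was at 41.2, 29.0 and 41.0 CPM against 15.1, 16.2 and 21.3 CPM, without overlap, at -1.08 ± 0.24 (edgeR's quasi-likelihood test, adjusted p = 0.161). The COP9 signalosome, a complex built like the lid, had 8 of 10 genes positive with a median of 0.18, 0 called and 0 with an unadjusted p under 0.05, and its summed level was 762 to 885 CPM in Control and 919 to 934 CPM in Wt1KO. The median of the lid genes was 0.22, and the difference between these complexes was not tested.

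Levels were compared between genes per kb. On exonic length the mean over 6 libraries was highest for *Psma7* at 151 CPM per kb, followed in other subcomplexes by *Psmd8* at 126, *Psmc4* at 126, *Psmb4* at 124 and *Psmd2* at 111 CPM per kb. The lowest were *Psma8* at 0.549, *Psmb9* at 1.02 and *Psmb8* at 1.91 CPM per kb. Canonical transcripts of several subunits have long untranslated ends in the annotation, so that *Psmb1* was at 26.1 CPM per kb of exonic length but at 218 CPM per kb of coding length, the highest of the beta ring. The orders that held on both lengths were *Psmd8* as the highest lid gene, *Psmd2* as the highest and *Psmd1* as the lowest of the other base subunits, *Psmd9* as the highest and *Psmd5* as the lowest chaperone, *Psmc2* as the lowest ATPase, *Psmb10* as the highest and *Psmb9* as the lowest immunosubunit and *Psme4* as the lowest activator. Over the 6 libraries the coefficient of variation had a range of 9.02% to 14.7% in the alpha ring, 7.99% to 17.3% in the lid and 6.26% to 73.2% among the activators.

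Promoter windows of 250 bases before to 50 after the start were available for 36 of the 43 genes in RefSeq (GRCm38.p6), and 4 motifs were searched on both strands. The unmatched genes were *Psma8*, *Psmb1*, *Psmb2*, *Psmb7*, *Psmc3*, *Psmd3* and *Psmd7*. The core of the antioxidant response element, TGACNNNGC, through which the product of *Nfe2l1* acts, was found in 6 of 36 genes (16.7%), against 16.9% of 10883 tested protein-coding genes in the table and 14% of all genes in it. GCGTGGG, a core that zinc fingers of WT1 and of EGR factors bind, was found in *Psma7* and *Psme2* (5.56%), against 9.77% and 5.74%. ACTTCCG, an element of ETS factors, was in 13 of 36 genes (36.1%), against 14% of the tested protein-coding genes and 7.2% of all genes, and CCAAT in 14 of 36 (38.9%), against 42.9% and 41.1%. The median log2 fold change was 0.13 for the 13 genes with ACTTCCG and 0.22 for the 23 without it. The stretches before the start that hold TGACNNNGC in *Psmb5* (chr14:54617996-54618106, minus strand, 47 bases before the start) and GCGTGGG, on the opposite strand, in *Psma7* (chr2:180042563-180042697, minus strand, 169 bases before the start) are shown with the match in capitals, since these are the genes of the beta and the alpha ring with the smallest p-values.
Psmb5: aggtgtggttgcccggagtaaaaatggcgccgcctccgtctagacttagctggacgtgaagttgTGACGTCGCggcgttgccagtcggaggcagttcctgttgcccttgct
Psma7: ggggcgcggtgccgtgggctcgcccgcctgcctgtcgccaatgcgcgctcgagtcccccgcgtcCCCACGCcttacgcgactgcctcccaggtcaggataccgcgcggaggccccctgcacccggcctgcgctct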

How the data were processed

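The authors prepared SMART-seq2 and Nextera XT libraries, which do not mark strand and carry no molecular identifiers, and mapped the reads with STAR 2.7.8a, for which the methods name GRCm39 and the submitters' processing notes GRCm38. The deposited values are expected counts per gene from RSEM 1.3.0 on GENCODE vM27, given as whole numbers without normalization. Groups and replicate numbers came from the labels. The column names of the count table start with AT in all Control libraries and with AU in all Wt1KO libraries. What these letters stand for is not given in the sources used here. Any difference between the series cannot be told apart from genotype. Genes reaching 10 counts in 2 libraries were tested across the whole table with edgeR 4.0.16 (TMM, quasi-likelihood F test, Benjamini-Hochberg adjustment) in R 4.3.3, with the SE taken as the ratio of the log2 fold change to the root of F. DESeq2 1.42.0 (the study used version 1.18) and limma 3.58.1 served as alternatives, together with other scalings, filters, offsets, a replicate block and each library left out. The genes and lists were chosen with earlier results of these data known. Named were the 10 genes with the smallest p, the highest and lowest per kb of each role, the immunosubunits, activators, *Psmc3ip*, *Wt1* and up to 4 genes per list. *Nfe2l1*, *Csf1r*, *Becn1*, *Aoc2*, *Aoc3* and the gene copies were chosen after their values were seen, as were the motifs. Lengths came from GENCODE vM39 and copies from blastn (90% identity over 100 bases). Depth was 26037324 to 44779020 counts, and the floor of 3 counts covers counting error only. The steps were tested on simulated data. Values of some list genes are not reported here.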

Additional observations from a re-analysis of the deposited data

How the results depend on the processing

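Under the 20 alternatives to the fit the median log2 fold change stayed positive and at most 1 gene was called. DESeq2 called 1 gene, *Psmb5* (0.74), with and without the filter on low counts, a choice on the filter made after the data had been seen, as were summing copies with their parent genes (0 called by edgeR and by DESeq2) and leaving out rRNA and mitochondrial genes (0 called). Scaling by library totals only left 2 genes with an unadjusted p under 0.05 and a median of 0.058, and the fold change limit left 2 of the 6. With length and GC offsets the median was 0.13, and with these offsets and the replicate block it was 0.13 with 3 genes at an unadjusted p under 0.05. Without a library the calls numbered 0 to 1 (*Psme3*, -1.65, without Control replicate 3), the genes with an unadjusted p under 0.05 numbered 1 to 7, those with a positive log2 fold change 33 to 40, and the median was 0.15 to 0.26. The immunosubunit share differed by -0.344 to 0.435 percentage points between the groups when a library was left out, against 0.123 with all 6.

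Same-numbered Control and Wt1KO libraries had deviations from their group means that correlated at 0.057, 0.0045 and 0.02, so the numbers were not taken to pair the samples. The study's cross gave embryos of both genotypes in the same litter. The labels do not say which libraries, if any, shared a litter, so a pairing by litter was not tested. The replicate block gave 0 calls, a median of 0.20, 37 positive log2 fold changes and 4 genes with an unadjusted p under 0.05.

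Of the 43 genes, 10 with a positive log2 fold change had a negative one when scaled by library totals, -0.025 for *Psmc2*, -0.11 for *Psmd1*, -0.13 for *Psmd14*, -0.12 for *Psmd5*, -0.13 for *Psme1*, -0.032 for *Psme4*, -0.09 for *Psma1*, -0.04 for *Psma4*, -0.07 for *Psma6* and -0.06 for *Psmd6*. *Psme2* was at -0.033 with the offsets and -0.047 with offsets and block. The offsets also made *Psma6* and *Psmd6* negative, at -0.061 and -0.014, and *Psmc6* positive, at 0.16. *Psmb9* was at -0.066 by limma-voom, -0.014 with the block and -0.16 with block and offsets. *Psmd14* was at -0.0019 with at least 10 counts in every library. Without a library the ranges were -0.19 to 0.64 for *Psmb9*, -0.13 to 0.19 for *Psmd1*, -0.11 to 0.14 for *Psmd14*, -0.15 to 0.18 for *Psmd5*, -0.053 to 0.072 for *Psme1*, -0.012 to 0.26 for *Psmb7*, -0.058 to 0.22 for *Psma6*, -0.12 to 0.11 for *Psmc3* and -0.12 to 0.15 for *Psmc6*. *Psma8* was at 6.10 with the block. The cause was not tested. With 3 libraries a group, SEs of 0.14 to 0.19 for the abundant subunits were close to the median log2 fold change of 0.21, which limits what could be called.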
